A study of Homo sapiens with 12 samples.

Results

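The EGF family ligands and growth factor receptors described here are 10 genes chosen by name, EGFR, ERBB2, ERBB3, AREG, EREG, HBEGF, TGFA, EPHA2, MET and ERRFI1. A gene was read from the Affymetrix probe sets, groups of short probes against 1 transcript, whose platform annotation gave exactly that 1 symbol. Probe sets were found for 9 of the 10 genes, 32 in all, out of 41091 probe sets and 19775 genes with 1 symbol in the series. AREG had none and is not analysed here. A probe set was taken as measured if its log2 value was over 4 on at least 3 of the 12 arrays. This held for 18 of the 32 probe sets and 8 of the 10 genes, against 10729 genes over the whole table. The other 14 probe sets lay between 1.87 and 4.20 on every array.

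The cells were HK-2, an immortalized line of human proximal tubule epithelium, the kidney segment that reabsorbs most of the filtrate. The 4 groups were cells given a high dose of a compound labelled Ota for 72 h, cells given its control vehicle for 72 h, cells given the high dose for 24 h, and cells given the vehicle for 24 h, with 3 arrays each. Neither the compound's full name nor its amount is stated in the labels. All cells were seeded 24 h before treatment, were about 90% confluent when it began, and grew in medium with 10 ng/ml recombinant human EGF, hydrocortisone, insulin and transferrin. A ligand of EGFR was thus supplied to the Ota and the control cells alike. The arrays of a group are labelled biological replicates with no word on separate cultures, so the p-values reflect only the scatter between these samples, which may be technical.

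EGFR is a cell surface receptor tyrosine kinase that binds EGF, TGF-alpha, HB-EGF, amphiregulin and epiregulin. ERBB2 has no known ligand of its own and pairs with EGFR or with ERBB3, whose kinase is weak. The ligands are made as membrane-bound precursors and are released by metalloproteases, chiefly ADAM17 and ADAM10. ERRFI1 encodes MIG6, an inhibitor that binds the EGFR kinase and is itself induced by growth factors. MET is the receptor for hepatocyte growth factor, and EPHA2 is the receptor for ephrin-A ligands on neighbouring cells. In the proximal tubule EGFR and MET are known for their part in regrowth of the epithelium after injury.

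Array-wide measures differed between the groups. The median of the tested genes was 7.68 ± 0.05 on Ota arrays and 7.96 ± 0.02 on control arrays at 72 h, and 7.40 ± 0.16 on Ota arrays and 7.97 ± 0.05 on control arrays at 24 h (SD, n = 3 each). Poly-A control RNAs, which are added to each sample at labelling, read 0.89 higher on Ota arrays at 72 h and 1.85 higher at 24 h on the log2 scale. The 18S ribosomal RNA probe sets read 1.34 and 1.58 higher at 72 h and 24 h. Each of these comparisons had an exact permutation p of 0.1, two-sided, the smallest that 3 against 3 arrays allow. Of the cell type markers, 6 of 6 epithelial genes were measured, EPCAM, KRT18, KRT8, KRT19, CDH1 and KRT7. Their summed log2 level was 57.2 to 58.3 on Ota arrays and 63.3 to 64.2 on control arrays at 72 h, and 57.3 to 61.8 on Ota arrays and 61.6 to 63.6 on control arrays at 24 h. In the test described below, 3 of the 6 fell and 0 rose at 72 h, and 2 fell and 1 rose at 24 h. CDH1 averaged 5.62 in Ota cells and 8.80 in control cells at 72 h, while KRT8 averaged 11.28 and 10.68. KRT7 rose at 24 h, with 7.41 in Ota cells and 6.42 in control cells. Of 15 proximal tubule markers only CDH6, SLC4A4 and PAX8 were measured, while the defining endocytic receptors LRP2 and CUBN and the transporters SLC34A1, SLC5A2, SLC22A6 and SLC22A8 were below the filter. The summed level of that list took all 13 of its genes with a probe set, most of them below the filter. It was 52.5 to 56.5 on Ota arrays and 58.5 to 59.0 on control arrays at 72 h, and 55.0 to 58.1 on Ota arrays and 59.2 to 59.3 on control arrays at 24 h. Of the markers of other cells, 0 of 8 leukocyte, 2 of 8 endothelial (ESAM, EGFL7), 3 of 8 fibroblast (DCN, LUM, COL1A1), 3 of 6 podocyte (PTPRO, SYNPO, PODXL) and 2 of 6 collecting duct genes (SCNN1A, AQP3) were measured. The part of these array-wide and marker differences in the results for the growth factor genes was not tested.

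Most of the measured genes of this family changed with Ota at each time, in both directions, as did most of all tested genes. At 72 h HBEGF, TGFA and EPHA2 rose and EGFR, ERBB2 and EREG fell, while MET and ERRFI1 did not pass the test. At 24 h HBEGF, TGFA, EREG, EPHA2 and ERRFI1 rose, ERBB2 fell, and EGFR and MET did not pass. These calls took the arrays as unpaired, and with the replicate number as a block EGFR also fell at 24 h (adjusted p = 0.0247). With the arrays scaled to the poly-A control RNAs instead (spike-in scaling), 0 members rose and 6 fell at 24 h. The test was limma on 10729 genes with Benjamini-Hochberg adjustment and a threshold of 0.05. The 3 members that rose and 3 that fell at 72 h stand beside a rise in 24.8% and a fall in 35.2% of the 10729 genes. The 5 that rose and 1 that fell at 24 h stand beside 20.8% and 40.5% of all tested genes. At 72 h the Ota arrays lay wholly above the control arrays for 4 members and wholly below for 3, against 32.2% and 41.5% of all tested genes. At 24 h they lay wholly above for 5 and wholly below for 3, against 24.1% and 41.5%. The median log2 fold change of the 8 members was 0.17 at 72 h, where that of all tested genes was -0.11, and 0.65 at 24 h, where that of all tested genes was -0.24. In a culture measured in bulk, fewer cells with a transcript and less of it per cell cannot be told apart.

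**Figure D1:**
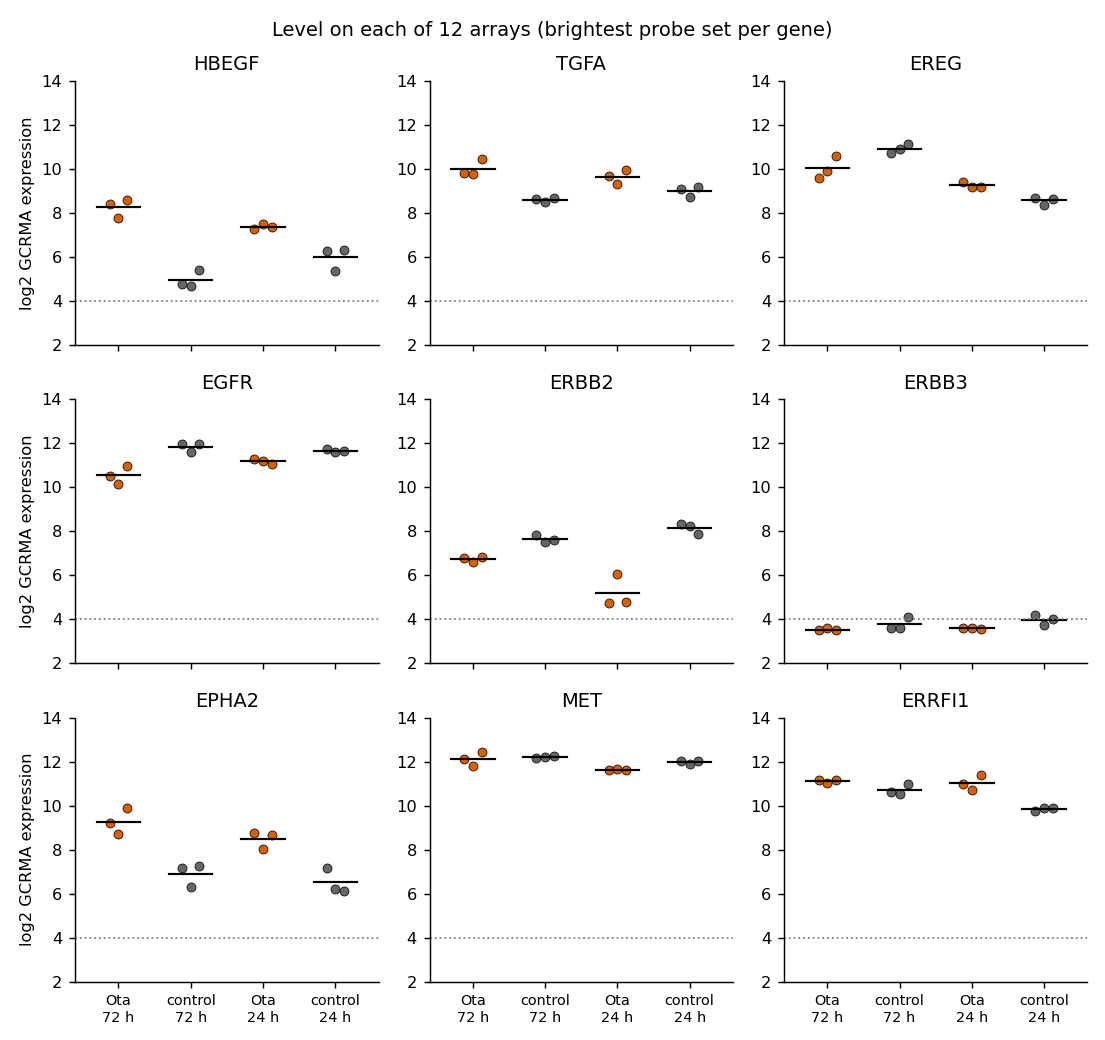
Log2 GCRMA level (vertical axis) of the brightest probe set of each gene on the 12 arrays, with Ota and control groups at 72 h and 24 h along the horizontal axis. Points are arrays, bars are group means of 3 arrays, and the dotted line marks the filter at 4. HBEGF and EPHA2 lie higher on every Ota array than on any control array of the same time, ERBB2 lies lower, and ERBB3 stays near the filter line in all groups.

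**Figure D2:**
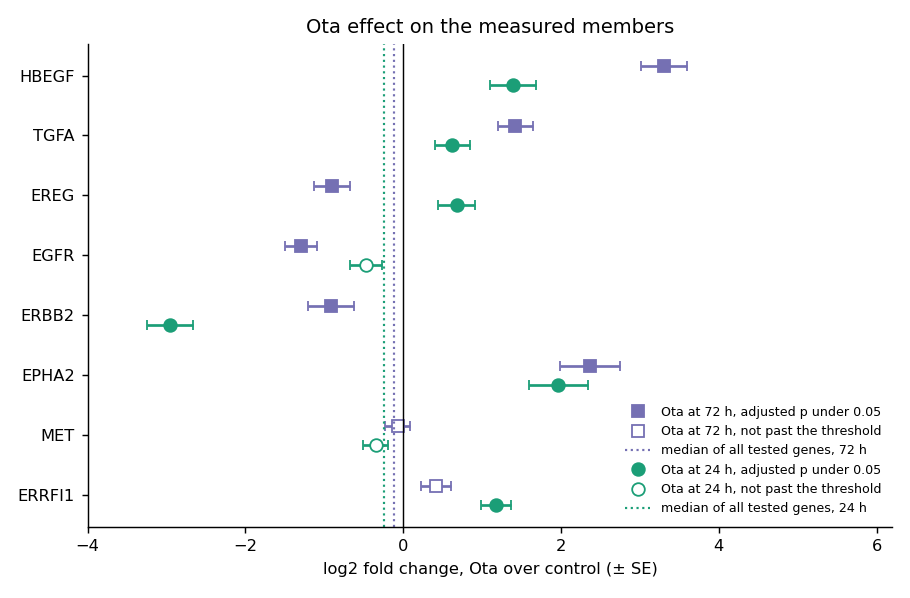
Log2 fold change of Ota over control with its standard error (horizontal axis) for the 8 measured genes (vertical axis), squares for 72 h and circles for 24 h, filled where the adjusted p was under 0.05. Dotted lines mark the medians of all tested genes, -0.11 at 72 h and -0.24 at 24 h. In these deposited values EREG is the gene with filled symbols on opposite sides of 0.

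HBEGF, TGFA and EPHA2 were the members that rose at both times, so the sequence before their transcription starts is shown, with that of EGFR, the receptor of the first pair, which fell at 72 h. The windows are the 250 bases before each start in RefSeq on GRCh38.p14, and the table held 11 such windows for 9 of the 10 members. TGFA has more than 1 listed start, and the window shown is the one farther upstream. Positions are chr5:140346604-140346853 (minus strand) for HBEGF, chr2:70553827-70554076 (minus) for TGFA, chr1:16156070-16156319 (minus) for EPHA2 and chr7:55018767-55019016 (plus) for EGFR. Capitals mark matches on either strand to the GC box (GGGCGG) and, in EPHA2, also to the cAMP response element (TGACGTCA).
HBEGF: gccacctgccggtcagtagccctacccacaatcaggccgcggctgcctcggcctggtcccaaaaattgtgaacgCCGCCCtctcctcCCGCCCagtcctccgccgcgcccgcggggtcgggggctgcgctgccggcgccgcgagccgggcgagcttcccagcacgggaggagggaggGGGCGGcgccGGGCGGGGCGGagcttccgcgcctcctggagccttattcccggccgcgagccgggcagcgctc
TGFA: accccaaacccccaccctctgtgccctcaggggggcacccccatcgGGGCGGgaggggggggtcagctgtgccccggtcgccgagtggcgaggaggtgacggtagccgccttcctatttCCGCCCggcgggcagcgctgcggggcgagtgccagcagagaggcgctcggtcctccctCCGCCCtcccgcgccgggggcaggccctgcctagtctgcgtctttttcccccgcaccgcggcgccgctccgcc
EPHA2: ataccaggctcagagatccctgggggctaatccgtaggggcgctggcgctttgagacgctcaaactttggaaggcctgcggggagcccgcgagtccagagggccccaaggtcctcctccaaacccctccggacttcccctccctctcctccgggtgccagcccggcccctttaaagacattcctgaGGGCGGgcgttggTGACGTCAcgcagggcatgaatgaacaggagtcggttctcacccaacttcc
EGFR: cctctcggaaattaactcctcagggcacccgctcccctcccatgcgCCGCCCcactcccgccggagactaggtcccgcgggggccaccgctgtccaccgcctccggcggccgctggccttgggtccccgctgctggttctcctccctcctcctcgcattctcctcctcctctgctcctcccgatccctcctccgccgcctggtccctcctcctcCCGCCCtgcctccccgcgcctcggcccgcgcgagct

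HBEGF's window held 5 GC boxes, of which the last 2 share a base, TGFA's held 3, EGFR's held 2 and EPHA2's held 1. A GC box was present in 42.6% of all 35116 windows of that length, so its presence does not set these genes apart. The response element in EPHA2 was present in 1.65% of all windows. The AP-1 motif (TGANTCA, 6.57% of windows), the EGR motif (GCGNGGGCG, 8.41%) and the TATA box (TATAAA, 10.7%) had no match in the 4 windows shown. In the other members' windows AP-1 matched in ERBB2 and in the window at EGFR's other listed start, the TATA box in EREG, AREG and that same EGFR window, the GC box in MET, ERRFI1 and AREG, and the response element in AREG. A match is a run of letters, not a measured binding site.

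Among the ligands, HBEGF showed the largest Ota effect of the 8 genes at 72 h. HBEGF encodes heparin-binding EGF-like growth factor, whose membrane form is also the receptor for diphtheria toxin. Its probe set 203821_at read 8.39, 7.77 and 8.61 on the Ota arrays at 72 h, against 4.77, 4.70 and 5.39 on the control arrays. At 24 h it read 7.28, 7.48 and 7.39 on the Ota arrays, against 6.29, 5.38 and 6.30 on the control arrays. Ota and control arrays did not overlap at either time. The log2 fold change was 3.30 ± 0.29 (SE) at 72 h, or 9.88-fold higher with Ota (adjusted p = 1.98e-06), and 1.39 ± 0.29 at 24 h, or 2.62-fold (adjusted p = 0.00135). The effect at 72 h exceeded that at 24 h by 1.91 ± 0.41 (adjusted p = 0.00261). Both sides of that difference moved. In Ota cells HBEGF was 0.88 higher at 72 h than at 24 h (adjusted p = 0.0209), and in control cells it changed by -1.04 between 24 h and 72 h (adjusted p = 0.0211), although the 2 sets of control arrays overlapped. The 4 groups thus ran from Ota at 72 h (8.26 ± 0.44) through Ota at 24 h (7.38 ± 0.10) and control at 24 h (5.99 ± 0.53) to control at 72 h (4.95 ± 0.38), each step past the test. Neither time step was firm. The control step failed without control replicate 1 or 3 of 24 h or replicate 1 or 2 of 72 h (adjusted p 0.0779 to 0.0873), and the Ota step without Ota replicate 1 of 24 h or replicate 1 or 3 of 72 h (0.0595 to 0.0824), with quantile normalization (0.0744) and with arrays centred on their medians (0.0878). The other measured probe set of the gene, 38037_at, averaged 7.45 ± 0.79 in Ota cells and 3.77 ± 0.48 in control cells at 72 h, and 6.21 ± 0.06 and 4.70 ± 0.56 at 24 h in Ota and control cells. The 72 h controls of this probe set averaged under the filter of 4, so its change at 72 h is given only as a bound, at least 3.42 on the log2 scale with each array below the filter raised to it. At 24 h its log2 fold change was 1.51, close to that of the brighter probe set.

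TGFA, which encodes transforming growth factor alpha, rose less than HBEGF on this scale. Probe set 205016_at read 9.81, 9.76 and 10.46 on the Ota arrays at 72 h, against 8.62, 8.48 and 8.66 on the control arrays. The 24 h values were 9.66, 9.30 and 9.95 on the Ota arrays, against 9.11, 8.74 and 9.18 on the control arrays. The groups stood apart at both times, by a narrow margin at 24 h. Ota changed TGFA by a log2 fold change of 1.42 ± 0.22 at 72 h, or 2.68-fold (adjusted p = 0.000166), and 0.62 ± 0.22 at 24 h, or 1.54-fold (adjusted p = 0.0284). The difference of 0.80 ± 0.31 between the times did not pass (adjusted p = 0.0531). It passed with the replicate number as a block (adjusted p = 0.0214), with trend and robust moderation (0.0468), array weights (0.67, adjusted p = 0.00207), a filter at 6 (0.0491) and spike-in scaling (1.76, adjusted p = 0.00736), and without Ota replicate 2 of 72 h (0.0370) or Ota replicate 3 (0.0234) or control replicate 2 (0.0374) of 24 h. The 24 h call was lost without Ota replicate 1 (adjusted p = 0.0675), Ota replicate 3 (0.0991) or control replicate 2 (0.109), and with the mean over the probe sets (0.147). The gene's other probe sets over the filter, 205015_s_at and 211258_s_at, lay under 4 on every control array of 72 h, and 211258_s_at entered the test through Ota arrays alone. They averaged 5.89 ± 0.69 and 4.86 ± 0.91 in Ota cells at 72 h, at least 1.89 and 0.86 above that limit, and give no independent reading of the size. Neither passed at 24 h. TGFA did not pass between the times in Ota cells (0.37, adjusted p = 0.169) or in control cells (-0.43, adjusted p = 0.191).

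EREG was the measured member whose Ota effect passed in opposite directions in the deposited values. It encodes epiregulin, a ligand of EGFR and ERBB4. Probe set 205767_at read 9.58, 9.90 and 10.60 on the Ota arrays at 72 h, against 10.74, 10.92 and 11.12 on the control arrays. Its 24 h values were 9.41, 9.18 and 9.17 on the Ota arrays, against 8.70, 8.37 and 8.66 on the control arrays. Every Ota array was below every control array at 72 h and above every control array at 24 h. For EREG the log2 fold change was -0.90 ± 0.23 at 72 h, or 1.87-fold lower with Ota (adjusted p = 0.00526), and 0.68 ± 0.23 at 24 h, or 1.60-fold higher (adjusted p = 0.0239). The difference between the times was -1.58 ± 0.33 (adjusted p = 0.00218). With spike-in scaling EREG fell at both times (-1.79 at 72 h and -1.17 at 24 h), and the difference of -0.61 did not pass (adjusted p = 0.272). Control cells themselves had more EREG at 72 h than at 24 h, by 2.35 ± 0.23 or 5.11-fold (adjusted p = 3.46e-05), while Ota cells had 0.78 more (adjusted p = 0.0123, and 0.0906 with centred arrays). The level in Ota cells at 72 h thus lay above that in Ota cells at 24 h and below that of the control cells of its own time. The 24 h call was lost without Ota replicate 1 (adjusted p = 0.0789) or control replicate 2 (0.0843).

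EGFR fell at 72 h on all 5 of its measured probe sets. The brightest, 201983_s_at, read 10.54, 10.14 and 10.99 on the Ota arrays at 72 h, against 11.96, 11.61 and 11.99 on the control arrays. At 24 h this probe set read 11.31, 11.21 and 11.05 on the Ota arrays, against 11.73, 11.60 and 11.67 on the control arrays. The Ota arrays were the lower ones at both times, without overlap. This gave a log2 fold change of -1.30 ± 0.20 at 72 h, or 2.46-fold lower (adjusted p = 0.000155). At 24 h it was -0.47 ± 0.20, which did not pass (adjusted p = 0.0586) but did with the replicate number as a block (0.0247) and with the mean over the probe sets (-0.78, adjusted p = 0.00361). The difference between the times was -0.82 ± 0.28 (adjusted p = 0.0309). That difference missed the threshold when any 1 of 7 arrays was left out, namely Ota replicate 1 or 2 or control replicate 1 or 3 of 72 h and Ota replicate 1 or control replicate 2 or 3 of 24 h (adjusted p 0.0552 to 0.0730), and with spike-in scaling it was 0.14 (adjusted p = 0.806). In Ota cells EGFR was lower at 72 h than at 24 h (-0.64, adjusted p = 0.0169), a step lost without Ota replicate 2 of 72 h (0.0660) or Ota replicate 1 of 24 h (0.0564). In control cells the change between the times was 0.19 (adjusted p = 0.546).

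The probe sets of EGFR differed in size of change. Probe set 201984_s_at read 7.12, 6.37 and 7.59 on the Ota arrays at 72 h, against 9.69, 9.43 and 9.76 on the control arrays, and 6.87, 6.43 and 6.76 on the Ota arrays at 24 h, against 8.92, 8.75 and 9.01 on the control arrays. Its Ota arrays stood about as far below the controls at both times, with log2 fold changes of -2.60 ± 0.26 at 72 h and -2.21 ± 0.26 at 24 h (adjusted p = 5.43e-06 and 1.85e-05, over probe sets). Its effect did not pass the test of a difference between the times (-0.40, adjusted p = 0.404). Probe set 224999_at fell at both times (-1.46 at 72 h and -0.73 at 24 h). The remaining pair, 210984_x_at and 211607_x_at, changed by -1.13 and -1.23 at 72 h and by -0.26 and -0.25 at 24 h, where neither passed. The suffix x marks probe sets that may also bind transcripts of other genes. The other 4 EGFR probe sets were below the filter in every group. Over all members, 6 of 18 probe sets rose and 7 fell at 72 h, beside 27.2% and 31.6% of all probe sets tested, with the dim TGFA probe sets counted among those that rose, and 6 rose and 3 fell at 24 h, beside 22.7% and 37.8%.

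**Figure D3:**
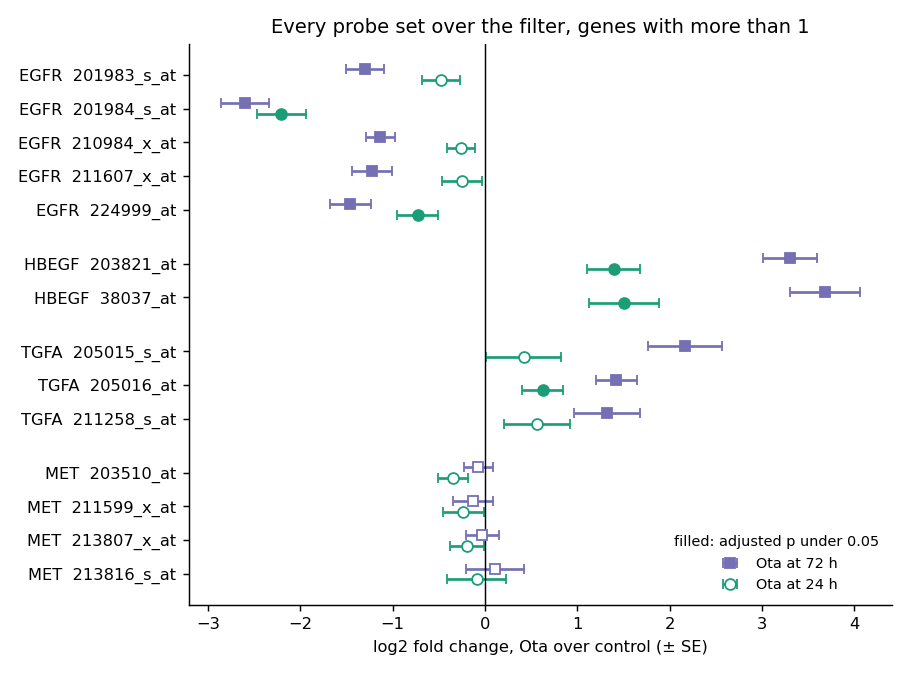
Log2 fold change of Ota over control with its standard error (horizontal axis) for each measured probe set (vertical axis) of the 4 genes with more than 1, squares for 72 h and circles for 24 h, filled where the adjusted p over probe sets was under 0.05. The 5 EGFR probe sets agree on a fall at 72 h and spread from -2.21 to -0.25 at 24 h, and the 4 MET probe sets lie near 0 with open symbols at both times. The 72 h controls of 38037_at, 205015_s_at and 211258_s_at averaged under the filter, so the plotted sizes at 72 h are not measured against a level above it.

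ERBB2 showed the largest fall of the members, at 24 h. ERBB2 is the signalling partner that other receptors of the family recruit, and 1 of its 3 probe sets was measured. Probe set 216836_s_at read 6.80, 6.61 and 6.82 on the Ota arrays at 72 h, against 7.83, 7.51 and 7.63 on the control arrays. At 24 h it read 4.74, 6.07 and 4.80 on the Ota arrays, against 8.34, 8.25 and 7.88 on the control arrays. All Ota arrays were lower, and Ota replicate 2 of 24 h stood above the other two of its group. The log2 fold change was -0.91 ± 0.30 at 72 h, or 1.89-fold lower (adjusted p = 0.0188), and -2.96 ± 0.30 at 24 h, or 7.76-fold lower (adjusted p = 5.28e-06). The effects differed by 2.04 ± 0.42 between the times (adjusted p = 0.00206). In Ota cells ERBB2 was 1.54 higher at 72 h than at 24 h (adjusted p = 0.000875), and in control cells the change was -0.50 (adjusted p = 0.252). The 72 h call was lost without Ota replicate 2 (adjusted p = 0.0573) or control replicate 1 (0.0637), with quantile normalization (0.0620) and with arrays centred on their medians (0.123). The 24 h value was -2.39 to -4.81 under the 3 other scalings, past the threshold in each.

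ERBB3, the partner of ERBB2 for neuregulins, could not be read. None of its 5 probe sets passed the filter, and its brightest, 226213_at, was over 4 on 2 of the 12 arrays. It averaged 3.53 ± 0.06 in Ota cells and 3.78 ± 0.29 in control cells at 72 h, and 3.59 ± 0.02 in Ota cells and 3.99 ± 0.21 in control cells at 24 h. These values are near the bottom of the scale, where no order was read. ERBB4, the remaining receptor of the family, was below the filter too.

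EPHA2 rose at both times by about the same amount. It encodes a receptor tyrosine kinase for membrane-bound ephrin-A ligands and was read from 1 probe set, 203499_at. The Ota arrays read 9.22, 8.70 and 9.92 at 72 h, against 7.15, 6.32 and 7.27 on the control arrays. At 24 h they read 8.75, 8.05 and 8.66, against 7.19, 6.23 and 6.15 on the control arrays. The lowest Ota array was above the highest control array at each time, and replicate 2 read lowest in both groups at 72 h. The log2 fold change was 2.37 ± 0.38 at 72 h, or 5.16-fold (adjusted p = 0.000189), and 1.97 ± 0.38 at 24 h, or 3.91-fold (adjusted p = 0.000748). The difference between the times, 0.40 ± 0.53, did not pass (adjusted p = 0.556). Neither did the change between the times in Ota cells (0.79, adjusted p = 0.0876) or control cells (0.39, adjusted p = 0.499).

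MET did not pass the test at either time in the deposited values. Probe set 203510_at read 12.13, 11.83 and 12.46 on the Ota arrays at 72 h, against 12.17, 12.23 and 12.24 on the control arrays. The readings at 24 h were 11.61, 11.68 and 11.61 on the Ota arrays, against 12.04, 11.89 and 12.02 on the control arrays. The groups overlapped at 72 h, and at 24 h the Ota arrays were the lower ones by a small step. MET's log2 fold change was -0.07 ± 0.16 at 72 h (adjusted p = 0.715) and -0.35 ± 0.16 at 24 h (adjusted p = 0.0727). The 4 MET probe sets were each short of the threshold at both times. In Ota cells MET was 0.51 higher at 72 h than at 24 h (adjusted p = 0.0150), a step that failed without Ota replicate 3 of 72 h (0.0575) and with centred arrays (0.267). Quantile normalization put the 24 h value past the threshold (-0.39, adjusted p = 0.0356). With spike-in scaling MET fell at both times, by log2 changes of -0.96 at 72 h (adjusted p = 0.0113) and -2.20 at 24 h (adjusted p = 3.99e-06).

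ERRFI1, the feedback inhibitor of EGFR, rose at 24 h. Probe set 224657_at read 11.15, 11.04 and 11.15 on the Ota arrays at 72 h, against 10.61, 10.52 and 10.97 on the control arrays. Its readings at 24 h were 11.00, 10.69 and 11.41 on the Ota arrays, against 9.75, 9.90 and 9.92 on the control arrays. The Ota arrays were higher at both times without overlap. ERRFI1's log2 fold change was 0.42 ± 0.19 at 72 h, short of the threshold (adjusted p = 0.0725, but 0.00282 with centred arrays), and 1.18 ± 0.19 at 24 h, or 2.26-fold (adjusted p = 0.000183). The effects differed by -0.76 ± 0.26 between the times (adjusted p = 0.0313). The level in Ota cells was 11.12 ± 0.06 at 72 h and 11.03 ± 0.36 at 24 h, a change of 0.08 (adjusted p = 0.729). The control cells rose by 0.84 between 24 h and 72 h (adjusted p = 0.00627), with 10.70 ± 0.24 at 72 h and 9.86 ± 0.09 at 24 h. The difference between the times was lost without Ota replicate 1 or 2 or control replicate 3 of 72 h, or without Ota replicate 1 or 3 or control replicate 1 of 24 h (adjusted p 0.0503 to 0.0820), and was 0.20 with spike-in scaling (adjusted p = 0.699).

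The Ota effect at 72 h differed from that at 24 h for 5 of the 8 members, upward for HBEGF and ERBB2 and downward for EGFR, EREG and ERRFI1. Over all tested genes it differed for 49.5%, upward for 29.6% and downward for 19.9%. Between the times, Ota cells had 4 members up (ERBB2, EREG, HBEGF, MET) and 1 down (EGFR), beside 37% and 23.3% of all tested genes. Control cells had 2 up (EREG, ERRFI1) and 1 down (HBEGF), beside 12.2% and 13.3%. These comparisons share arrays with the Ota comparisons.

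The direction of several members depended on how the arrays were scaled. Quantile normalization moved the median of all gene fold changes by 0.07 at 72 h and 0.20 at 24 h, subtraction of the array medians (centring) by 0.28 and 0.56, and scaling to the poly-A control RNAs by -0.89 and -1.85. Of all tested genes, 26.9% were up and 33.7% down at 72 h with quantile normalization, 35.5% and 27.8% with centring, and 5.17% and 62.6% with spike-in scaling. At 24 h these were 28.4% and 34.7%, 43.4% and 26.7%, and 1.42% and 93.5%. HBEGF at 72 h stayed between 2.42 and 3.59 and EPHA2 at 72 h between 1.48 and 2.65 under these 3 scalings, past the threshold in each. EGFR at 72 h stayed between -2.19 and -1.02 and EREG at 72 h between -1.79 and -0.62, also past the threshold in each. At 24 h with spike-in scaling the fold changes were -0.46 for HBEGF, -1.23 for TGFA, -1.17 for EREG and -0.67 for ERRFI1, each reversed in sign, and 0.12 for EPHA2, so that 0 members rose and 6 fell. HBEGF (adjusted p = 0.266) and EPHA2 (0.797) did not pass in that scaling. TGFA at 72 h was 0.53 with that scaling and did not pass (adjusted p = 0.192), and ERRFI1 at 72 h was -0.47. With centring EGFR at 24 h was 0.09 and MET was 0.21 at both times. Relative to the median of all tested genes in the deposited values, the changes at 72 h were 3.42 for HBEGF, 1.53 for TGFA, -0.79 for EREG, -1.18 for EGFR, -0.80 for ERBB2, 2.48 for EPHA2, 0.04 for MET and 0.53 for ERRFI1. At 24 h they were 1.63, 0.86, 0.92, -0.24, -2.72, 2.21, -0.11 and 1.42 for the same genes in that order.

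**Figure D4:**
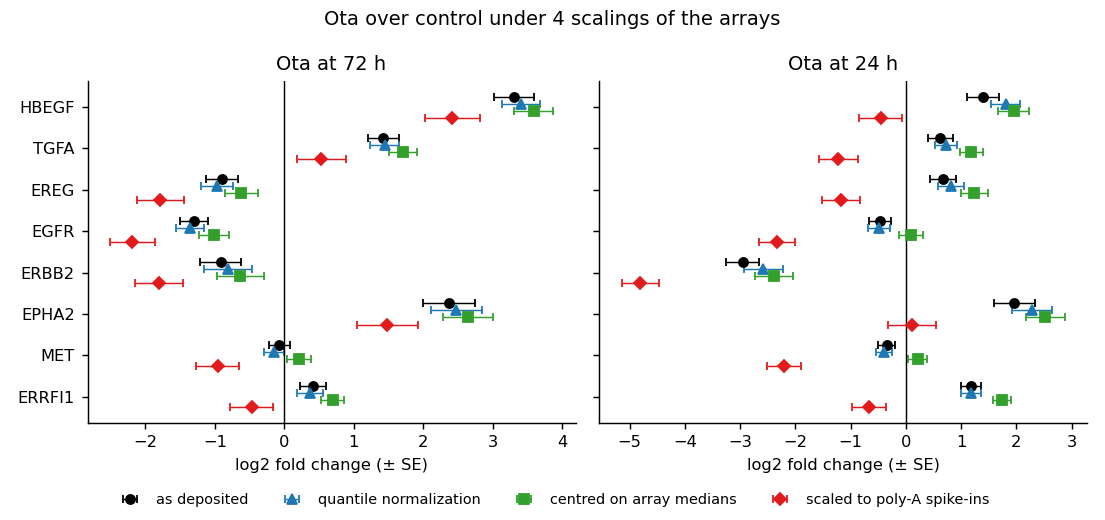
Log2 fold change of Ota over control with its standard error (horizontal axis) for the 8 measured genes (vertical axis) at 72 h (left) and 24 h (right), under the deposited values and 3 other scalings of the arrays. At 24 h the spike-in values lie left of the others by about the shift of -1.85, which puts HBEGF, TGFA, EREG and ERRFI1 below 0.

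Over the 12 arrays the members fell into no single pattern. HBEGF and TGFA had a Pearson correlation of 0.95, TGFA and EPHA2 0.89 and HBEGF and EPHA2 0.88, while EGFR and HBEGF had -0.81. EREG and EGFR had 0.10. The tested genes most like HBEGF were MYL12A and PLAU (0.98 each), most like TGFA were BDNF (0.97) and PGBD5 (0.96), and most like EREG were VEGFA (0.96) and ERO1B (0.94). Those most like EGFR were TBC1D16 and P4HA1 (0.98 each), and those most like ERBB2 were KLC1 (0.99) and GMPS (0.98). EPHA2 was nearest to HNRNPA3 and HCCS (0.95 each), MET to ATG13 and CXCL8 (0.93 each), and ERRFI1 to VAMP7 (0.97) and HABP4 (0.95). The 12 arrays share 4 groups and array-wide shifts, so these values describe the arrays and carry no p.

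Of the other ligands of the family, 2 of 7 were measured, BTC and NRG1. BTC encodes betacellulin, a ligand of EGFR and ERBB4. Like EREG it fell at 72 h and rose at 24 h, with 5.10 in Ota cells and 6.10 in control cells at 72 h (log2 fold change -0.997 ± 0.26, adjusted p = 0.00516) and 4.93 in Ota cells and 4.03 in control cells at 24 h (0.90 ± 0.26, adjusted p = 0.00937; -0.95 with spike-in scaling). NRG1, a neuregulin that binds ERBB3 and ERBB4, rose at 24 h on its brightest probe set (0.56, adjusted p = 0.0301; -1.29 with spike-in scaling), but 2 of its 5 probe sets fell. The dimmer of these in Ota cells averaged 3.11 at 24 h, under the filter, and 9.02 in control cells, at least 5.02 lower with Ota.

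The enzymes and carriers that release the ligands moved in both directions in the deposited values. Of 9 measured genes 2 rose and 2 fell at 72 h, and 4 rose and 3 fell at 24 h. This stands beside a rise in 24.8% and a fall in 35.2% of all tested genes at 72 h, and 20.8% and 40.5% at 24 h. The list median was 0.14 at 72 h and 0.24 at 24 h, where that of all tested genes was -0.11 and -0.24. With centring 5 rose and 1 fell at 72 h and 6 rose and 2 fell at 24 h, and with spike-in scaling 0 rose and 5 fell at 72 h and 0 rose and 9 fell at 24 h. The shares of all tested genes were 35.5% up and 27.8% down at 72 h and 43.4% and 26.7% at 24 h with centring. With spike-in scaling those shares were 5.17% and 62.6%, and 1.42% and 93.5%. ADAM17, the main sheddase of TGF-alpha and amphiregulin, was 0.56 higher at 72 h (adjusted p = 0.00415), and NAPA, a vesicle fusion adaptor, was 0.68 higher at 72 h and 0.49 higher at 24 h. With spike-in scaling these were -0.33, -0.21 and -1.36. At 24 h ADAM9 (0.93) and ADAM15 (0.69) rose, at -0.92 and -1.16 with spike-in scaling. RHBDF1, which encodes iRhom1, a carrier of ADAM17, fell at both times (-1.74 at 72 h and -1.92 at 24 h). FRMD8, which stabilizes the iRhom and ADAM17 complex at the cell surface, was 4.55 in Ota cells and 8.56 in control cells at 24 h (-4.01, adjusted p = 1.35e-06). At 72 h FRMD8 was 8.38 in Ota cells and 7.74 in control cells and did not pass (0.64, adjusted p = 0.122). Its effects differed by 4.65 between the times (adjusted p = 2.75e-05). ADAM10 changed by -0.55 at 72 h and -0.36 at 24 h, and neither passed with centring (-0.27 and 0.20).

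Among 24 measured genes of receptor feedback and degradation, 4 rose and 7 fell at 72 h and 2 rose and 13 fell at 24 h. The shares of all tested genes were 24.8% up and 35.2% down at 72 h and 20.8% and 40.5% at 24 h. The list median was -0.05 at 72 h and -0.96 at 24 h, where that of all tested genes was -0.11 and -0.24. At 72 h the balance turned with the scaling, with 10 up and 5 down under centring and 2 up and 14 down under spike-in scaling. At 24 h these were 4 up and 11 down, and 0 up and 24 down. Of all tested genes, 35.5% were up and 27.8% down at 72 h and 43.4% and 26.7% at 24 h under centring. Under spike-in scaling 5.17% were up and 62.6% down at 72 h, and 1.42% and 93.5% at 24 h. UBASH3B, a phosphatase that binds CBL, rose at 72 h (8.88 in Ota cells and 6.66 in control cells, 2.22, adjusted p = 3.91e-06). SPRY4, a Sprouty inhibitor of RAS signalling, rose by 2.01 and DUSP5, a nuclear ERK phosphatase, by 1.34 at that time (0.45 and not past the test with spike-in scaling for DUSP5). At 24 h DUSP5 passed in the opposite direction (-1.75, adjusted p = 0.00466). SPRY1 and SPRED1, relatives of SPRY4, fell, SPRED1 by a log2 change of -1.93 and SPRY1 by at least 1.95, with an Ota mean of 3.85 under the filter. The other measured probe set of SPRED1 was -0.15 at 72 h and did not pass. RNF41, a ubiquitin ligase that turns over ERBB3, was 3.56 in Ota cells and 7.95 in control cells at 72 h (adjusted p = 1.86e-06), and all 3 of its probe sets fell. The Ota mean was under the filter, so the fall was at least 3.83 on the log2 scale. At 24 h STAM, an endosomal sorting protein, averaged 3.56 in Ota cells, also under the filter, and 8.46 in control cells, a fall of at least 4.28. SPRED2 averaged 4.25 in Ota cells and 8.28 in control cells, and the phosphatase PTPN1, which acts on EGFR, 4.11 in Ota cells and 7.62 in control cells, so both ended close to the filter and no order among these falls was read. At 72 h PTPN1 rose (1.13, in the fit over probe sets), and SPRED2 (-0.85) and STAM (-0.77) did not pass. PTPN2 (1.10) and SH3KBP1 (0.80) rose at 24 h, at -0.75 and -1.05 with spike-in scaling.

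Of 18 measured adaptor, RAS-MAPK and PI3K genes, 6 rose and 6 fell at 72 h and 4 rose and 7 fell at 24 h, with list medians of 0.12 and -0.49. All tested genes had 24.8% up and 35.2% down at 72 h and 20.8% and 40.5% at 24 h, with medians of -0.11 and -0.24. With centring 9 rose and 4 fell at 72 h and 7 rose and 4 fell at 24 h, and with spike-in scaling 1 rose and 11 fell at 72 h and 0 rose and 17 fell at 24 h. Centring gave 35.5% of all tested genes up and 27.8% down at 72 h, and 43.4% and 26.7% at 24 h. Spike-in scaling gave 5.17% up and 62.6% down at 72 h, and 1.42% and 93.5% at 24 h. AKT2 rose by 2.91 at 72 h and 2.24 at 24 h (0.39 and not past the test with spike-in scaling at 24 h), but its other probe set fell (-0.71 and -0.70). STAT3 rose by 1.27 and 0.93 and PTPN11, the SHP2 phosphatase, by 1.12 and 0.53 at 72 h and 24 h, in the deposited values. With spike-in scaling they were 0.38 and 0.23 at 72 h, not past the test, and -0.92 and -1.32 at 24 h. STAT3 rose on 2 of 3 probe sets at each time. PTPN11 rose on all 5 at 72 h but on 2 of 5 at 24 h, where the lowest was -0.04. SOS2, a RAS exchange factor, fell at both times, with 7.63 in Ota cells and 9.10 in control cells at 72 h (-1.47) and 3.57 in Ota cells and 8.66 in control cells at 24 h, at least 4.33 lower because the Ota mean was under the filter. The PI3K regulatory subunit PIK3R1 fell at 72 h (-1.34, on 2 of 3 probe sets), and PLCG1 (-2.31) and the catalytic subunit PIK3CB (-1.62) fell at 24 h. The other measured probe set of PLCG1 was -0.40 at 24 h and did not pass. SOS1 had probe sets that passed in opposite directions at 72 h, from -1.55 to 0.89.

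Of 9 measured partners of MET and EPHA2, 3 were up and 3 down at 72 h and 4 up and 3 down at 24 h. This stands beside 24.8% up and 35.2% down of all tested genes at 72 h and 20.8% and 40.5% at 24 h. With centring 4 were up and 1 down at 72 h and 6 up and 1 down at 24 h, and with spike-in scaling 2 were up and 5 down at 72 h and 1 up and 6 down at 24 h. All tested genes had 35.5% up and 27.8% down at 72 h and 43.4% and 26.7% at 24 h with centring. With spike-in scaling they had 5.17% up and 62.6% down at 72 h, and 1.42% and 93.5% at 24 h. CD44, a co-receptor of MET, rose on all 8 of its probe sets at both times, with 11.79 in Ota cells and 8.40 in control cells at 72 h (3.39, adjusted p = 4.42e-07) and 11.77 in Ota cells and 9.99 in control cells at 24 h (1.78, adjusted p = 5.78e-05; -0.07 with spike-in scaling). Among the ephrin-A ligands, EFNA2 rose by at least 1.59 at 72 h, where its control mean of 3.73 was under the filter, and by 2.94 at 24 h, EFNA1 by 1.81 at 24 h (-0.04 with spike-in scaling), and EFNA4 fell, by a log2 change of -0.57 at 72 h (-0.29 and not past the test with centring) and by at least 1.56 at 24 h, with an Ota mean of 3.63. SPINT1, an inhibitor of the proteases that activate hepatocyte growth factor, rose by 1.07 at 72 h (0.18 and not past the test with spike-in scaling). The plexin PLXNB1, which associates with MET, fell by at least 1.44 at 72 h, with an Ota mean of 3.53, and by a log2 change of -0.96 at 24 h (-0.40 and not past the test with centring). PLXNB2 changed by -0.37 at 72 h and -0.39 at 24 h, and neither passed with centring (-0.08 and 0.17).

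Of 40 other receptor tyrosine kinases 16 were measured, and 3 rose and 6 fell at 72 h and 6 rose and 3 fell at 24 h. Over the 10729 genes the shares were 24.8% up and 35.2% down at 72 h, and 20.8% up and 40.5% down at 24 h. The list median was -0.23 at 72 h and 0.05 at 24 h, beside medians of -0.11 and -0.24 over the 10729 genes. With centring 5 rose and 4 fell at 72 h and 7 rose and 2 fell at 24 h, and with spike-in scaling 1 rose and 10 fell at 72 h and 0 rose and 12 fell at 24 h. Centring raised 35.5% of all tested genes and lowered 27.8% at 72 h, and 43.4% and 26.7% at 24 h. For spike-in scaling these shares were 5.17% and 62.6%, and 1.42% and 93.5%. EPHB1, an ephrin-B receptor, rose by 3.29 at 72 h and 1.56 at 24 h (-0.30 with spike-in scaling), and MERTK by 1.06 at 72 h (0.17 and not past the test with spike-in scaling). At 72 h 2 of 3 EPHB1 and 1 of 2 MERTK probe sets passed. EPHB4 differed in sign between the times on its brighter probe set, 0.70 at 72 h (-0.19 with spike-in scaling) and -2.72 at 24 h. Its other measured probe set was 0.19 at 72 h and 0.13 at 24 h and passed at neither time. At 72 h TYRO3 (-1.32) and the insulin-like growth factor receptor IGF1R (-1.21) fell, as did EPHA3, by at least 1.55 with an Ota mean of 3.95. At 24 h DDR2 (2.09) and FGFR2 (1.80) rose, and neither passed with spike-in scaling (0.24 and -0.05). RYK (-1.78) and TYRO3 (-0.76) fell at 24 h, and TYRO3 did not pass with quantile normalization (-0.27) or centring (-0.19). Leaving out 1 array ended the call of NRG1, ADAM15, NAPA, ADAM10, PLXNB2 and EPHB1 at 24 h and of DUSP5, SOS2, EFNA4, PLXNB2, MERTK and EPHB4 at 72 h, with the highest adjusted p between 0.0565 and 0.165. These lists are described by counts set beside the shares of all tested genes, and no list was tested as a set.

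**Figure D5:**
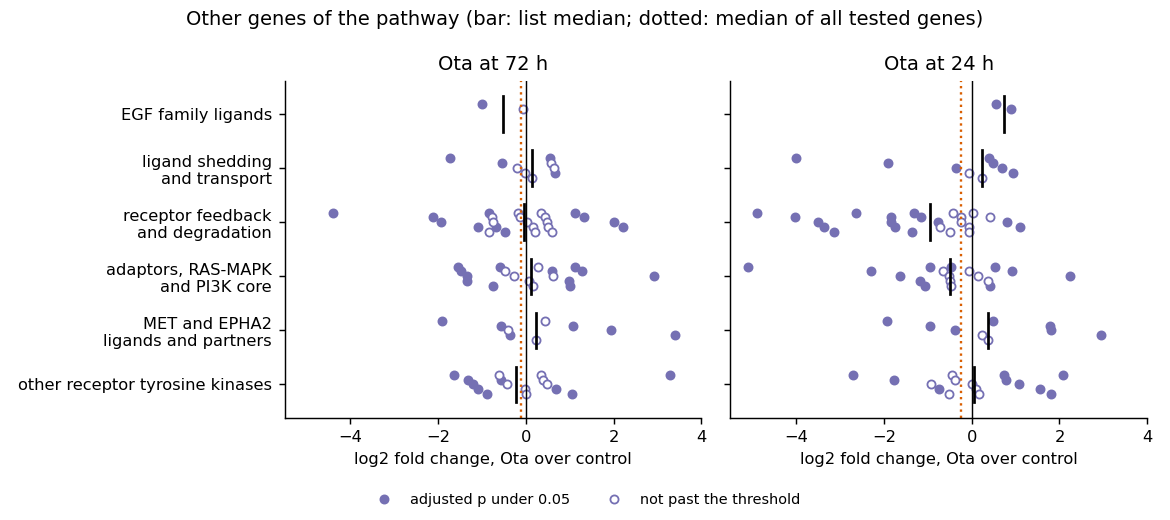
Log2 fold change of Ota over control (horizontal axis) for each measured gene of 6 pathway lists (vertical axis) at 72 h (left) and 24 h (right), filled where the adjusted p was under 0.05. Bars mark list medians and the dotted line the median of all tested genes. The feedback and degradation list has its median at -0.96 at 24 h and at -0.05 at 72 h.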

How the data were processed

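RNA of 12 HK-2 samples was measured on Affymetrix arrays, with groups and replicate numbers as labelled. The authors deposited log2 expression values per probe set, made with GCRMA, per the submitters' processing notes, which give no version. The arrays normalized together and any later filter are not given in the sources used here. GCRMA subtracts an estimate of unspecific binding and fits all arrays to a common distribution, which can hide or shift array-wide differences. The table held 54675 probe sets, 62 of them Affymetrix controls. The platform annotation gave 1 symbol for 41091, several for 1801 and none for 11777.

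Values were used as deposited. Probe sets entered if they had 1 symbol and exceeded 4 on 3 or more of 12 arrays, and a gene was represented by its probe set with the highest mean. All 10729 genes were tested in limma 3.58.1 (R 4.3.3), 4 group means, residual degrees of freedom 8, prior 3.56, two-sided, adjusted by Benjamini-Hochberg, with a threshold of 0.05. Where a group averaged under 4, a change was given as a bound, with each array under 4 raised to it. A second fit took the 19401 probe sets over the filter one by one. Array-wide measures were compared by exact permutation (10 splits), on means of 24 poly-A and 3 18S probe sets. The number of arrays limits the precision. The fit was tested on simulated data.

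The members and gene lists were chosen with earlier results of these data known. All members were described. Of each pathway list up to 3 genes with the largest change past the threshold in each direction were named, and for each member the 2 tested genes with the highest Pearson correlation over the 12 arrays. Equal replicate numbers were checked by correlating deviations from group means. At 24 h the 3 equal-numbered Ota and control pairs had r = 0.12, 0.23 and 0.27, so the numbers may pair the arrays there. At 72 h they had -0.05, 0.14 and 0.19. The fit that gave the calls used no pairing at either time. A further fit took the replicate number as a block at both times. The calls it changed are given for the members and the named list genes, and for the other list genes only as counts. Promoter windows came from RefSeq on GRCh38.p14, a build not tied to the arrays.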

Additional observations from a re-analysis of the deposited data

Results flagged for a closer look

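For 5 genes the Ota effect at 72 h differed from that at 24 h by limma's test of the difference itself, adjusted over 10729 genes. The difference was 1.91 on the log2 scale for HBEGF, 2.04 for ERBB2, -1.58 for EREG, -0.82 for EGFR and -0.76 for ERRFI1. Such a difference passed for 49.5% of all tested genes. EREG is the one of them whose effects passed with opposite signs, -0.90 at 72 h and 0.68 at 24 h. With spike-in scaling EREG fell at both times (-1.79 and -1.17) and its difference was -0.61 (adjusted p = 0.272), while that of EGFR was 0.14 (0.806) and that of ERRFI1 0.20 (0.699), so these 3 did not pass. Groups of 3 arrays are too small for a test of single outlying arrays.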

How the results depend on the processing

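Results depended most on the scaling of the arrays and on single arrays, at 24 h, at 72 h for ERBB2, and between the times. With poly-A spike-in scaling the sign of the 24 h Ota effect reversed for EREG (-1.17), HBEGF (-0.46), TGFA (-1.23) and ERRFI1 (-0.67). HBEGF did not pass in the new direction (adjusted p = 0.266), and the other 3 did. The sign also reversed for the difference between times of EGFR (0.14) and ERRFI1 (0.20) and the time step of EGFR in Ota cells (0.29, adjusted p = 0.425). None of these passed. The array median over all probe sets, most of them dim, was higher by 0.032 at 72 h and 0.098 at 24 h on Ota arrays, against -0.28 and -0.56 over the tested genes.

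Of 8 members, 5 rose at 24 h, and 0 with spike-in scaling and 3 with an adjusted p under 0.01 or an absolute log2 change of at least 1. Where 1 fell at 24 h, 2 fell with quantile normalization, the replicate block, the mean over probe sets or the arrays of the comparison only, 3 with trend and robust moderation or array weights, and 6 with spike-in scaling. At 72 h 3 fell, and 1 with the fold change limit. The effect differed upward for 2, and for 4 with spike-in scaling or array weights and 1 without _x_at and _s_at probe sets. It differed downward for 3, and for 0 with spike-in scaling and 1 with no filter, an adjusted p under 0.01 or the fold change limit. In control cells 2 rose between times, and 1 with spike-in scaling or the fold change limit, and 1 fell, and 0 with spike-in scaling, no filter or an adjusted p under 0.01 and 3 with array weights or the arrays of the comparison only. In Ota cells 4 rose, and 1 with centring, an adjusted p under 0.01 or the fold change limit, 2 with the arrays of the comparison only and 7 with spike-in scaling, and 1 fell, and 0 with spike-in scaling, the mean over probe sets, no _x_at and _s_at probe sets, the arrays of the comparison only, an adjusted p under 0.01 or the fold change limit. Of 18 probe sets 6 rose and 3 fell at 24 h, and 0 rose and 15 fell with spike-in scaling. The cause was not tested, except that stricter thresholds make fewer calls.

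Leaving out each array in turn gave 3 to 5 members up and 1 to 3 down at 24 h, 2 to 3 upward and 1 to 3 downward differences between times, 0 to 2 falls in control cells, 2 to 5 rises and 0 to 1 falls in Ota cells, and 4 to 7 probe sets up and 2 to 5 down at 24 h. At 72 h it gave 3 to 4 members up and 2 to 3 down. In each of these fits the remaining pair of arrays was assumed to vary like the other groups. With the replicate block EGFR passed at 24 h (adjusted p = 0.0247), as did the difference between times for TGFA (0.0214) and the time step of EPHA2 in Ota cells (0.0285), and PLXNB2 at 72 h did not (0.0617). The block changed no other call of a member. With it the feedback and degradation list had 6 up and 10 down at 72 h and 2 up and 14 down at 24 h. The adaptor, RAS-MAPK and PI3K list had 5 and 6, and 4 and 8. The other receptor tyrosine kinases had 3 and 7, and 6 and 4. All tested genes had 25.9% up and 36.2% down at 72 h and 21.8% and 41.3% at 24 h with the block.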
